A study of Homo sapiens with 6 samples.

Results

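The clustered protocadherin genes are 53 protein-coding genes that lie side by side on the long arm of chromosome 5. They were chosen by symbol (PCDHA, PCDHB or PCDHG on chromosome 5) and fall into 15 alpha, 16 beta and 22 gamma genes, out of 20162 protein-coding genes annotated on GRCh37 and 19675 used on GRCh38. From the first to the last gene the cluster spans chr5:140165721-140892544 on GRCh37 and chr5:140786140-141512975 on GRCh38, or 726.8 kb. All members are transcribed from the plus strand.

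Clustered protocadherins are cell-surface adhesion proteins best known from neurons. There each cell chooses a few promoters of the cluster, and the resulting mix of proteins lets the branches of a neuron recognise one another. Each alpha and gamma gene consists of its own large variable exon, with its own promoter, which is spliced to constant exons shared by its group. The beta genes consist of a large exon without shared constant exons. Most promoters carry a conserved element with the letters CGCT, and CTCF and cohesin bind the promoters that are in use. The C-type genes (PCDHAC1, PCDHAC2, PCDHGC3, PCDHGC4 and PCDHGC5) lie at the ends of the alpha and gamma groups and are used more evenly among neurons. The neural setting is background only, since the cells here were blood cells.

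Acetylation of lysine 27 of histone H3 (H3K27Ac), found at active enhancers and promoters, and trimethylation of lysine 4 (H3K4me3), found at active promoters, were mapped by ChIPmentation in OCI-AML3. This established human acute myeloid leukemia line carries mutant NPM1 (mtNPM1) and mutant DNMT3A. The guide RNA was either a control (sgNeg) or directed at the mutant allele (sgNpm1A), and cells were taken after 3 days per the labels, whereas the study's methods name a longer time. There was 1 library for each guide RNA and mark, which gave 4 peak lists, and 2 input libraries were not analysed here.

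No group had a replicate, so the spread between replicates could not be measured, and differences between libraries are given without p-values. The H3K27Ac lists were on GRCh37 and the H3K4me3 lists on GRCh38, and positions were compared only within a mark. All labels name OCI-AML3, but the deposited lists of the marks bear unlike tags, OCI2 for H3K27Ac and OCI3 for H3K4me3. The study also used OCI-AML2, whose parent cells carry no mutant NPM1, and whether the H3K27Ac lists come from another line or culture was not settled. The lists held 327715 (sgNeg H3K27Ac), 317059 (sgNpm1A H3K27Ac), 353628 (sgNeg H3K4me3) and 106641 (sgNpm1A H3K4me3) peaks on 24 chromosomes. Read depth was unknown. Of 6 myeloid markers, 6, 4, 5 and 0 had a promoter peak in these lists in the same order, against 4, 3, 2 and 1 of 6 neuronal markers. Many of the neuronal peaks were counted through an annotated start inside the gene, over 1 kb from the start of its record. These were the highest peaks of RBFOX3 in all 4 lists, SNAP25 and SYP in sgNeg H3K27Ac, MAP2 in sgNpm1A H3K27Ac and TUBB3 in sgNeg H3K4me3. The same held for the myeloid marker CD33 in sgNpm1A H3K27Ac and sgNeg H3K4me3. The sgNpm1A H3K4me3 list had no promoter peak at any of the myeloid markers, genes that define the line. In it a gene without the mark cannot be told apart from a gene missed in that library. The sgNpm1A H3K27Ac list had the same limit in part. It had no promoter peak at CEBPA and LYZ, a myeloid transcription factor and lysozyme, and its peak at SPI1, another myeloid factor, was at the 34.1st percentile, against the 99.97th in sgNeg. Over all coding genes, 13.8% and 14.9% had a sgNpm1A H3K27Ac peak in the 500 bp before and after the start, below the 19.1% from 2 to 2.5 kb after it.

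The promoter sequences show what the groups share. RefSeq windows on GRCh38 were matched for 47 of 53 members, and the 250 bases before the start had a median GC content of 37.6%, against 62.0% over 15843 coding genes. By group the median was 34.8% in alpha, 39.6% in beta and 40.2% in gamma. The letters CGCT stood on the gene strand in 45 of 47 windows (95.7%), against 57.4% of all genes, and on either strand in 95.7% against 75.7%. The letters CCCTC, part of many CTCF sites, stood on either strand in 10 of 47 (21.3%), against 72.3% of all genes. They were found in 3 of 13 alpha, 0 of 14 beta and 7 of 20 gamma windows.

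Each group had a word of 8 letters of its own around CGCT, taken as the word held by most of its windows on the gene strand. The alpha word ATGTCGCT stood in 9 of 13 alpha windows, from 42 to 85 bases before the start with a median of 52. The beta word GTGGCGCT stood in 12 of 14 beta windows, at a median of 65.5 bases before the start. The gamma word GCCGCTGT stood in 11 of 20 gamma windows, at a median of 67 bases before the start. None of the 3 words occurred in a window of either of the other groups. On either strand they stood in 0.221%, 1.19% and 1.29% of all windows. The alpha and the beta word were each tied with another word for the number of windows and were the rarer of the pair over all genes. All 3 words hold the letters CGCT, so they are not independent of that motif.

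The 120 bases before the start of a pair of genes of each group and of a pair of C-type genes are given 5′ to 3′ on the plus strand of GRCh38, to show the element beside the values that follow. Capitals mark the word of the group. The windows are PCDHA4, chr5:140806948-140807067, PCDHA10, chr5:140855777-140855896, PCDHB5, chr5:141135086-141135205, PCDHB16, chr5:141182267-141182386, PCDHGA7, chr5:141382622-141382741, PCDHGA10, chr5:141412867-141412986, PCDHAC2, chr5:140966356-140966475 and PCDHGC3, chr5:141475846-141475965.
PCDHA4: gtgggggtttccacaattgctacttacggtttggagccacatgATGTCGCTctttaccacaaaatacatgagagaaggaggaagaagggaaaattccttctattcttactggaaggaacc
PCDHA10: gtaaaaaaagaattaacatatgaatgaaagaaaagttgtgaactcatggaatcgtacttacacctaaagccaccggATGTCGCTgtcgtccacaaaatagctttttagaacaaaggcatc
PCDHB5: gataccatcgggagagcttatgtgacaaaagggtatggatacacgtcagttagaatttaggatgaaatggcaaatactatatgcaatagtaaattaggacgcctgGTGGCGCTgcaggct
PCDHB16: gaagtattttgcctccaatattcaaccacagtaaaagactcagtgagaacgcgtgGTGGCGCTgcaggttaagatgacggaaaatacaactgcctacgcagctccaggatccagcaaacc
PCDHGA7: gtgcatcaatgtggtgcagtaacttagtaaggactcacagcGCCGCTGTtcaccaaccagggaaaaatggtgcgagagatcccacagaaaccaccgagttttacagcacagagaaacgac
PCDHGA10: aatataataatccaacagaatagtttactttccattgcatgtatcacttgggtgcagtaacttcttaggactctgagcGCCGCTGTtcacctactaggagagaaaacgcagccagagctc
PCDHAC2: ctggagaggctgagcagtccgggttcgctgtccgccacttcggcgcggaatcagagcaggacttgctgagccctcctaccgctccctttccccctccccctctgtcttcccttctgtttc
PCDHGC3: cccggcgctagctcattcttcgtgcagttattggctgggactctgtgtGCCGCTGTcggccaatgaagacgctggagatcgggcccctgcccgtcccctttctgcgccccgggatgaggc
The GC content of the 120 bases was 44.2% in PCDHA4 and 36.7% in PCDHA10. PCDHAC2 held no group word, and its 120 bases had a GC content of 63.3%. PCDHGC3 held the gamma word within a window of 65.0% GC.

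Promoter peaks were scarcer at the cluster than over all genes. In sgNeg H3K27Ac, 15 of 53 members (28.3%, 95% Wilson interval 18.0 to 41.6%) had a peak within 1 kb of an annotated transcript start, against 79.1% of all coding genes. In sgNpm1A H3K27Ac the count was 12 of 53 (22.6%, 13.5 to 35.5%), against 57.0% of all genes. In sgNeg H3K4me3 it was 7 of 53 (13.2%, 6.55 to 24.8%), against 68.3%. In sgNpm1A H3K4me3 it was 3 of 53 (5.66%, 1.94 to 15.4%), against 9.49%, and the interval took in the share of all genes. In the other 3 lists the share of all genes lay above the interval. These shares take in any annotated start, also inside a gene. At the gene record start alone, the share of all genes was counted only in bins of 500 bp, given below. The intervals cover counting error only, and neighbouring genes that share a constant region are not independent.

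The groups differed in these counts. Of 15 alpha genes, 8, 3, 1 and 2 had a promoter peak in sgNeg H3K27Ac, sgNpm1A H3K27Ac, sgNeg H3K4me3 and sgNpm1A H3K4me3. Of 16 beta genes the counts were 2, 1, 0 and 1. Of 22 gamma genes they were 5, 8, 6 and 0. For 0 of 16 beta genes in sgNeg H3K4me3 the upper bound of the interval was 19.4%. The intervals of the 3 groups overlapped in every list, as the plot of shares by group shows. Overlap of intervals does not decide whether shares differ, and the order of the groups was not tested.

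**Figure D1:**
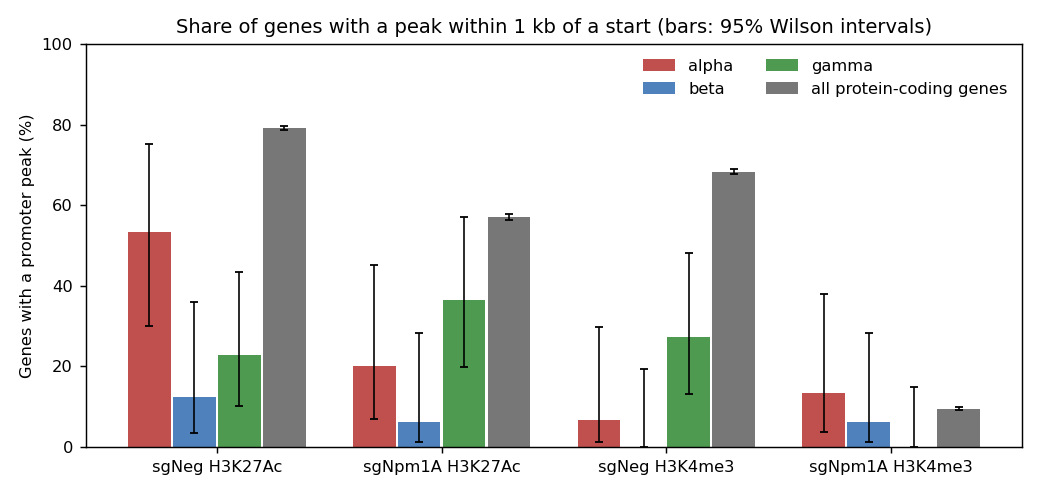
Percentage of alpha, beta and gamma protocadherin genes and of all protein-coding genes with a peak within 1 kb of a start, for each of the 4 lists. Bars are shares and error bars are 95% Wilson intervals, and the share of all genes stands above every group in the 2 sgNeg lists, at 79.1% and 68.3%.

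The promoter peaks of the members ranked lower than those of all genes in 3 of the lists. Peaks were ranked within their list by fold enrichment, the ratio of the pileup to that expected (with 1 added to each for H3K4me3, as the values show), and the percentile is the share of the list that a peak exceeds, with ties counted in part. The highest promoter peak of a member had a median percentile of 44.5 in sgNeg H3K27Ac, against 96.5 for all genes with a promoter peak. The medians were 56.3 against 69.1 in sgNpm1A H3K27Ac and 49.6 against 97.4 in sgNeg H3K4me3. In sgNpm1A H3K4me3 the median was 60.5 for the members and for all genes alike. No member had a promoter peak at or above the 99th percentile in any list, where 3104, 200, 3133 and 37 coding genes did.

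The median width of the members' promoter peaks was 442, 474, 166 and 693 bp, against 1512, 565, 690 and 448 bp for all genes. Only peaks with a q-value under 0.01 left 2, 3, 6 and 3 members, against 60.8%, 30.5%, 66.7% and 9.14% of all genes. Most H3K27Ac promoter peaks of the cluster thus did not pass this q-value. For H3K4me3, the fold values of all peaks gave whole pileups, within 0.05 of a fragment, when read as the pileup plus 1 over a constant background plus 1, with a background of 3.81 fragments in sgNeg and 2.93 in sgNpm1A. The peaks of the cluster rested on 11 to 20 fragments in sgNeg and on 10 to 19 in sgNpm1A, and the lowest of any peak in the whole lists were 11 and 10.

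Few members had a peak under both guide RNAs. For H3K27Ac, 4 members had a promoter peak in both lists (52.2% of all genes), 11 in sgNeg only (26.9%), 8 in sgNpm1A only (4.86%) and 30 in neither. The members in both lists were PCDHA10, counted through a start inside the gene, PCDHAC2, PCDHGA2 and PCDHGC5. For H3K4me3, 1 member, PCDHAC1, had a promoter peak in both lists (7.81% of all genes), 6 in sgNeg only (60.5%), 2 in sgNpm1A only (1.68%) and 44 in neither. No test of these differences was possible with 1 library a group.

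Across the 4 lists, 29 members had no promoter peak, 15 had one in 1 list, 5 in 2 lists and 4 in 3 lists. No member had one in all 4. Such counts across lists were not made over all coding genes, so no share stands beside them. The members with none were 6 alpha, 13 beta and 10 gamma genes. The alpha genes were PCDHA2, PCDHA6, PCDHA7, PCDHA8, PCDHA9 and PCDHA12. The beta genes were all but PCDHB5, PCDHB11 and PCDHB16. The gamma genes were PCDHGA1, PCDHGA3, PCDHGA4, PCDHGA6, PCDHGA9, PCDHGA12, PCDHGB2, PCDHGB5, PCDHGB6 and PCDHGB7. The grid of members by list shows that the peaks were scattered over the cluster. Of the 4 members with a peak in 3 lists, PCDHAC1, PCDHAC2 and PCDHGC5 are C-type genes.

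**Figure D2:**
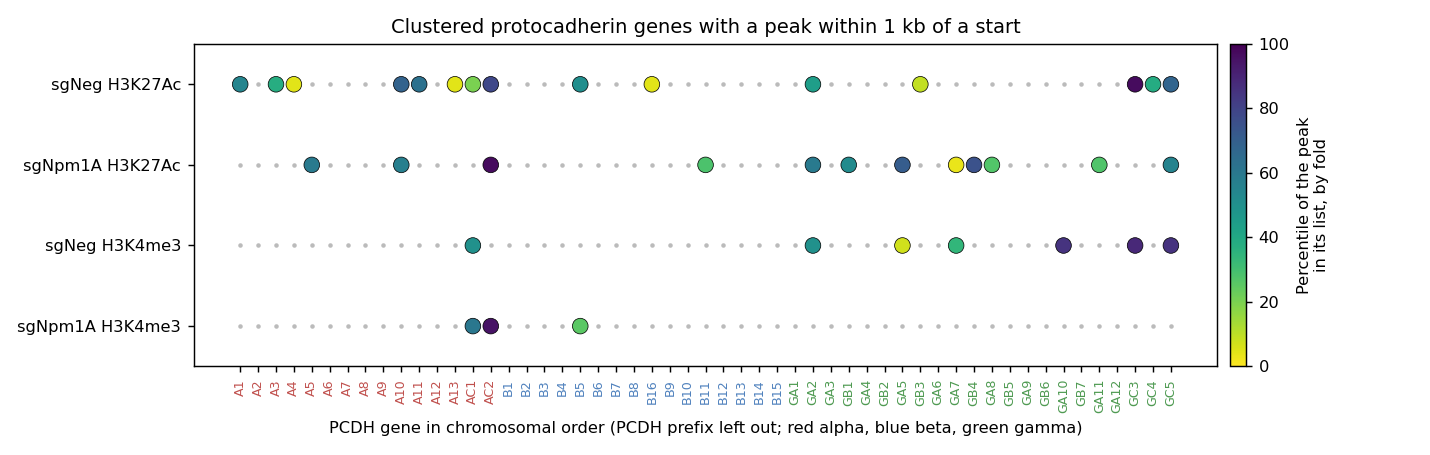
Each of the 53 protocadherin genes in chromosomal order (horizontal) in each of the 4 lists (vertical). Large points mark a peak within 1 kb of a start, coloured by its percentile in the list by fold enrichment, and small grey points mark none. PCDHAC1, PCDHAC2, PCDHGA2 and PCDHGC5 had a peak in 3 lists.

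Among the alpha genes, PCDHAC2 carried the highest promoter peaks. In sgNeg H3K27Ac its peak of 967 bp had a fold of 3.05, at the 78.3rd percentile. In sgNpm1A H3K27Ac its peak of 1858 bp had a fold of 3.86, at the 96.9th percentile (chr5:140346726-140348583, GRCh37). In sgNpm1A H3K4me3 its peak of 1630 bp had a fold of 5.09, at the 95.2nd percentile, the highest and the widest promoter peak of any member in that list (chr5:140966926-140968555, GRCh38). In sgNeg H3K4me3 it had no peak within 1 kb of the start, and a peak of 321 bp with a fold of 3.54 began 1228 bp after it. The sgNpm1A H3K4me3 peak rested on 19 fragments.

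PCDHAC1, the other C-type gene of alpha, had a fold of 2.60 in sgNeg H3K27Ac (percentile 20.0), 3.33 in sgNeg H3K4me3 (percentile 49.6) and 3.82 in sgNpm1A H3K4me3 (percentile 60.5). In sgNpm1A H3K27Ac its nearest peak lay just outside the window, 1036 bp from a start, with a fold of 3.72 at the 95.5th percentile. The H3K4me3 peaks rested on 15 fragments in sgNeg and 14 in sgNpm1A. The other alpha genes had promoter peaks for H3K27Ac only. In sgNeg H3K27Ac the highest after PCDHAC2 were PCDHA10 with a fold of 2.93 and PCDHA11 with 2.87. Both were counted through an annotated start inside the gene, since the peaks lay from 2052 to 2442 bp and from 2795 to 3264 bp after the start of the gene record, and the PCDHA10 peak in sgNpm1A lay from 1903 to 2458 bp. PCDHA1 had the widest peak, of 1771 bp with a fold of 2.81. PCDHA3, PCDHA4 and PCDHA13 had folds of 2.70, 2.54 and 2.54. In sgNpm1A H3K27Ac, PCDHA5, which had none in sgNeg, had a fold of 3.01 and PCDHA10 one of 3.00.

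Among the beta genes only PCDHB5, PCDHB11 and PCDHB16 had a promoter peak. PCDHB5 had a fold of 2.79 in sgNeg H3K27Ac (234 bp, percentile 51.1) and of 3.31 in sgNpm1A H3K4me3 (302 bp, percentile 25.6, 12 fragments). PCDHB16 had a fold of 2.54 in sgNeg H3K27Ac (percentile 4.59), the lowest value in the list. PCDHB11 had a fold of 2.80 in sgNpm1A H3K27Ac (175 bp, percentile 28.4). PCDHB1, which lies apart at the start of the beta group, had no promoter peak in any list.

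Among the gamma genes, PCDHGC5 had a peak in 3 lists. Its fold was 2.92 in sgNeg H3K27Ac (1225 bp, percentile 67.8), 2.98 in sgNpm1A H3K27Ac (1783 bp, percentile 55.1) and 4.16 in sgNeg H3K4me3 (279 bp, percentile 85.2). The last of these also lay from 2774 to 3052 bp after the start of PCDHGC4. It ended 999 bp before the PCDHGC5 start and was the promoter peak nearest the edge of the window in that list. Just outside the edge lay a peak 1141 bp from the start of PCDHGA1. PCDHGC4 had a fold of 2.71 in sgNeg H3K27Ac alone (percentile 38.4). PCDHGA2 had folds of 2.74 in sgNeg H3K27Ac (percentile 44.5), 3.01 in sgNpm1A H3K27Ac (percentile 59.2) and 3.33 in sgNeg H3K4me3 (percentile 49.6). In sgNeg H3K4me3 the highest gamma peaks were at PCDHGC3 (fold 4.37, 557 bp, 20 fragments), PCDHGA10 (fold 4.16, 170 bp, 19 fragments) and PCDHGC5. PCDHGA7 and PCDHGA5 had 14 and 12 fragments.

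In sgNpm1A H3K27Ac, 6 of 22 gamma genes had a promoter peak that sgNeg lacked, against 4.86% of all coding genes. The same held for 35 of 177 olfactory receptor genes on chromosome 11. In sgNeg only, 3 gamma and 10 olfactory receptor genes had one, against 26.9% of all coding genes. Of the 6 gamma genes, PCDHGB4 had the highest peak, with a fold of 3.17 over 144 bp (percentile 74.9). PCDHGA5 followed with 3.12 over 1573 bp (percentile 71.0). PCDHGB1 (2.96), PCDHGA11 (2.79), PCDHGA8 (2.79) and PCDHGA7 (2.66) were lower. None of these 6 reached a fold of 4. PCDHGB3 had a peak in sgNeg H3K27Ac only, with a fold of 2.54 (percentile 9.26).

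PCDHGC3 needs a remark on its start. Its highest sgNeg H3K27Ac peak (chr5:140884377-140897108, GRCh37) was 12732 bp wide with a fold of 4.36 (percentile 97.2), ranked 436th of the list by width. It was counted because an annotated transcript of PCDHGC3 starts within the shared constant exons, far from the variable exon. The peak covered the last 8168 bp of the gamma group, with exons that 22 members share, and reached 2526 bp into the 3′ end of DIAPH1, a formin of the neighbouring locus on the opposite strand. In sgNpm1A, 6 peaks covered 2518 bp (19.8%) of the same stretch, with folds of 2.77 to 3.36. With the start of the gene record alone, PCDHGC3 kept a promoter peak in sgNeg H3K27Ac, of 254 bp with a fold of 2.74 (percentile 44.1), from 173 to 426 bp after that start. This setting left 13 members in sgNeg H3K27Ac, without PCDHA10 and PCDHA11, and 11 in sgNpm1A H3K27Ac, without PCDHA10. The share of all coding genes was not counted at this setting, so scarcity at the cluster was not assessed with that window. Bins of 500 bp from 1 kb before to 1 kb after that start were counted. In sgNeg H3K27Ac they held a peak in 1, 0, 3 and 11 of 53 members. The shares of all genes were 42.9%, 54.6%, 60.2% and 55.9%. In sgNeg H3K4me3 the counts were 1, 0, 3 and 5, against 23.6%, 27.7%, 52.6% and 50.4% of all genes. In sgNpm1A H3K27Ac they were 3, 0, 1 and 9, against 15.7%, 13.8%, 14.9% and 17.6%. In sgNpm1A H3K4me3 they were 0, 0, 1 and 3, against 3.1%, 3.0%, 3.6% and 4.0%.

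Of 69, 81, 61 and 20 peaks that touched the cluster, 16, 13, 7 and 3 (23.2%, 16.1%, 11.5% and 15.0%) were promoter peaks of a member, whereas 10.9%, 8.29%, 5.53% and 2.05% of all peaks lay within 1 kb of a start of a coding gene. The cluster is dense in starts, so these shares are not on equal terms. Within 2 kb of a start, 23, 32, 20 and 6 of 53 members had a peak, against 83.0%, 67.3%, 74.5% and 15.2% of all genes. The position of the peaks was therefore counted in bins of 500 bp around each start. Over all coding genes the sgNeg lists had their maximum in the first 500 bp after the start, with 60.2% of genes for H3K27Ac and 52.6% for H3K4me3. In alpha the maximum in each of these lists lay from 2 to 2.5 kb after the start, with 66.7% and 40.0% of genes, and in the first 500 bp it was 6.67% and 0%. In sgNpm1A H3K27Ac all genes had 14.9% in the first 500 bp and 19.1% from 2 to 2.5 kb, while alpha had 0% and 60.0%.

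**Figure D3:**
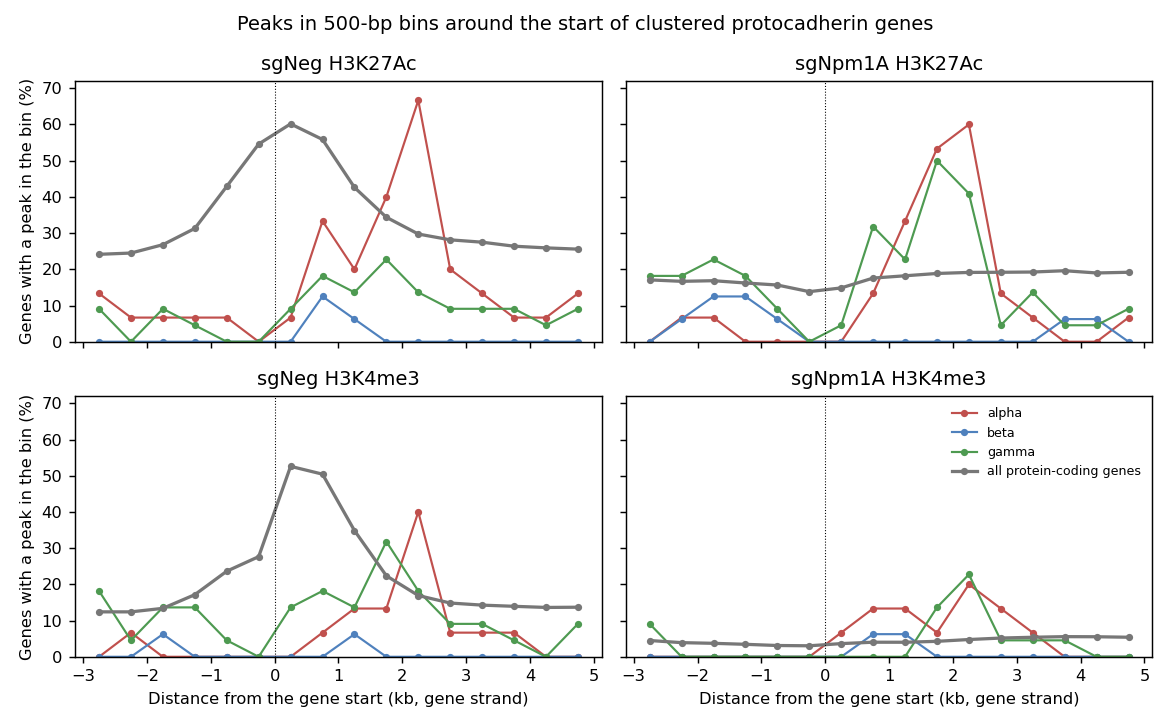
Percentage of genes with a peak in each bin of 500 bp from 3 kb before to 5 kb after the start of the gene record, for alpha, beta, gamma and all protein-coding genes, with 1 panel for each list. The lines of alpha rise from 2 to 2.5 kb after the start, to 66.7% in sgNeg H3K27Ac and 60.0% in sgNpm1A H3K27Ac, while those of beta stay at 0% there.

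The stretch from 1.5 to 3 kb after the start was then counted as a window of its own, chosen after the peaks had been seen. For H3K27Ac, 12 of 15 alpha genes had a peak there in sgNeg (80.0%, 54.8 to 93.0%) and 11 of 15 in sgNpm1A (73.3%, 48.1 to 89.1%), against 44.9% and 31.3% of all genes. In 9 alpha genes both lists had one. The share of all genes with one in both lists was not counted, so this overlap was not assessed. For gamma the counts were 7 of 22 (31.8%) and 13 of 22 (59.1%), with 5 in both lists. For beta they were 0 of 16 and 0 of 16, with an upper bound of 19.4%. For H3K4me3 alpha had 6 and 4 of 15, gamma 8 and 5 of 22, and beta 0 and 0 of 16, against 31.8% and 8.52% of all genes. The beta interval lay below the share of all genes in the first 3 of these lists and took it in for sgNpm1A H3K4me3. In every list it took in the share of the olfactory receptor genes on chromosome 11. Those shares were 10.7% and 11.9% for H3K27Ac and 7.78% and 2.99% for H3K4me3. Because the window was set on the peaks of the cluster, the counts and intervals are a description.

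The midpoints of the alpha peaks of this window lay from 1281 to 3030 bp after the start in sgNeg H3K27Ac, with a median of 2228 bp, and from 1482 to 2812 bp in sgNpm1A H3K27Ac, with a median of 2058 bp. All 12 and all 11 overlapped the coding part of the variable exon, which ended at a median of 2584 bp after the start. The range of the midpoints and the overlap follow in part from the choice of the window. The window shares peaks with the promoter counts, at PCDHA1, PCDHA10, PCDHA11 and PCDHAC2 in sgNeg H3K27Ac and at PCDHA10 and PCDHAC2 in sgNpm1A H3K27Ac. The peaks at PCDHA9 and PCDHA11, whose midpoints lay the farthest out, belong to gene records that begin farther before the coding sequence, by 724 and 921 bp against a median of 166 bp. The end of the variable exon encodes the membrane-spanning part and the start of the variable cytoplasmic part of the protein.

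In sgNeg H3K27Ac the folds of the alpha peaks in this window ran from 2.73 to 3.24 with a median of 2.89 (median percentile 64.6), highest at PCDHA5. Of these peaks 2 of 12 had a q-value under 0.01, against 21.9% of the whole list. In sgNpm1A H3K27Ac the folds ran from 2.66 to 3.86 with a median of 3.14 (median percentile 72.7), highest at PCDHAC2, PCDHAC1 (3.72) and PCDHA9 (3.67). There 7 of 11 had a q-value under 0.01, against 33.7% of the whole list. In sgNeg H3K4me3 the highest alpha peaks of this window were at PCDHA3 and PCDHA10, each with a fold of 4.37. In gamma the highest were PCDHGA9 (3.18) in sgNeg H3K27Ac, PCDHGA2 (3.52) in sgNpm1A H3K27Ac and PCDHGC5 (4.83) in sgNpm1A H3K4me3. PCDHAC2, PCDHGA9, PCDHGB6 and PCDHGC5 had a peak in this window in all 4 lists. How many of all genes did so was not counted. PCDHGB6 had folds of 2.54, 3.02, 3.74 and 4.32 in the order of the lists given above, and PCDHGA9 had 3.18, 3.18, 3.33 and 4.07.

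**Figure D4:**
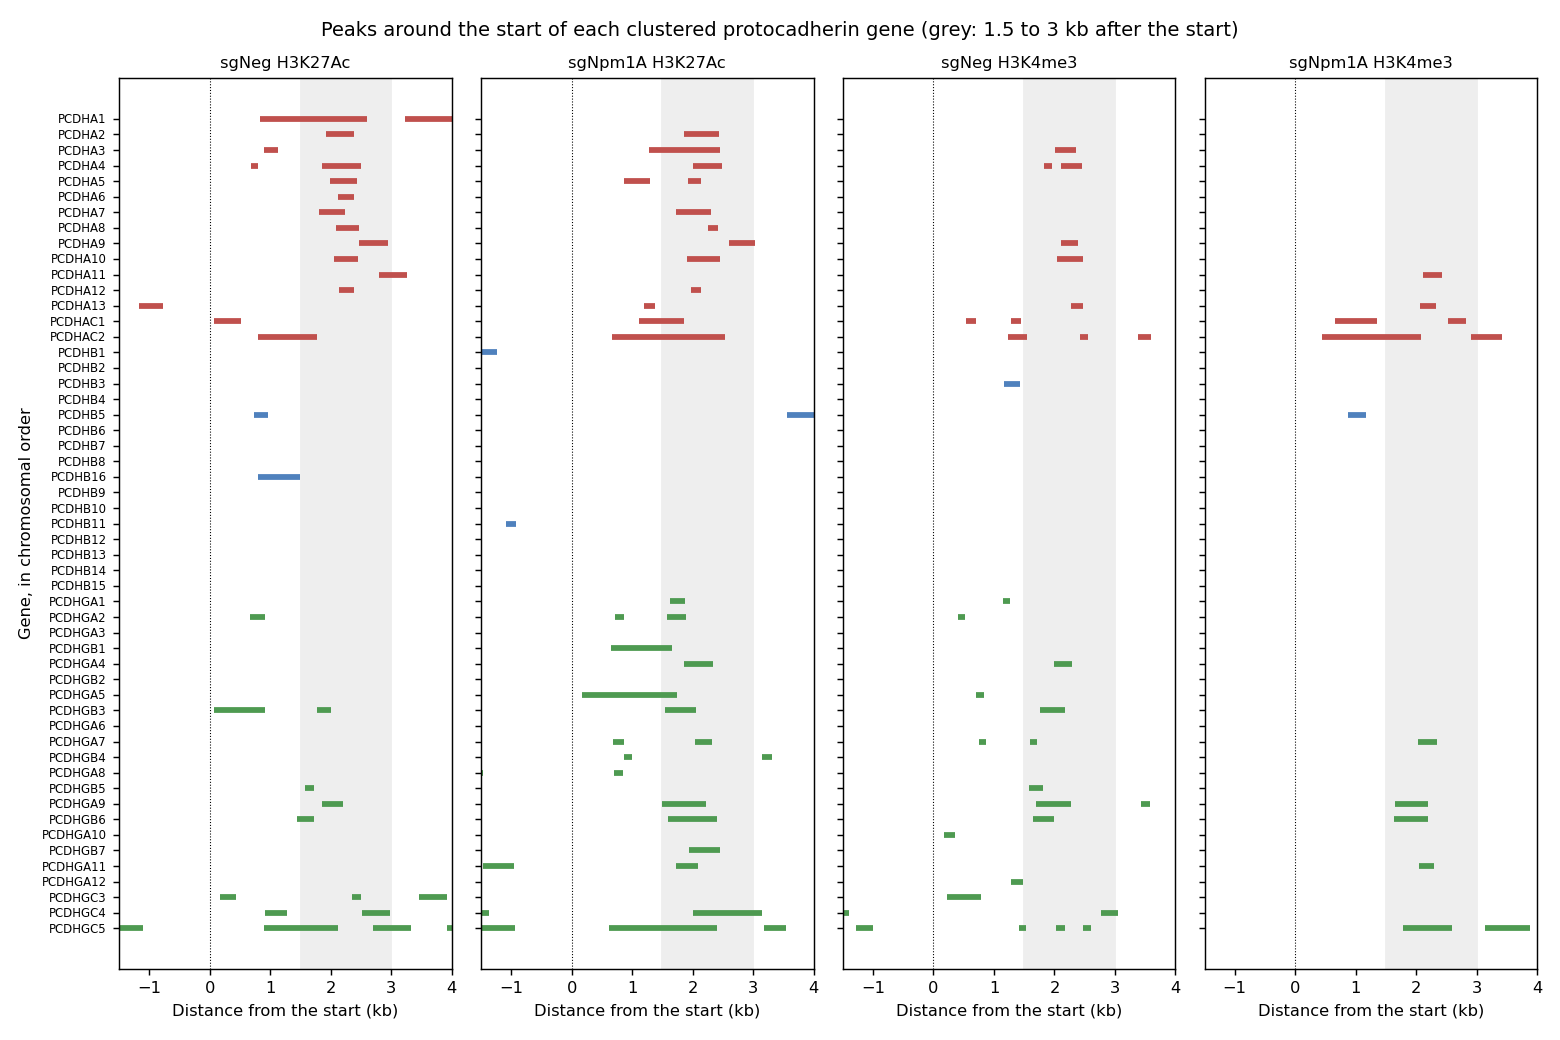
Peaks from 1.5 kb before to 4 kb after the start of the gene record of each of the 53 genes, as bars along the distance in kb, in 1 panel for each list and in red for alpha, blue for beta and green for gamma. The grey band is the stretch from 1.5 to 3 kb after the start, where 12 and 11 of 15 alpha genes and 0 of 16 beta genes have a H3K27Ac peak.

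Base composition moved with position. In alpha the median GC content was 66.6% and 65.8% in the bins from 1.5 to 2 kb and from 2 to 2.5 kb, and in gamma 57.6% and 60.7%. The beta genes reached 67.4% and 66.7% in the same bins and had no peak there. Over the whole stretch from 1.5 to 3 kb the median GC content was 54.6% in alpha, 55.1% in beta and 52.6% in gamma, and within 1 kb of the start it was 41.0%, 41.7% and 43.9%. The share of runs of 50 bases that recur exactly elsewhere in the cluster had a median of 8.13% in alpha, 33.2% in beta and 1.96% in gamma. PCDHB1 had 0% of such runs, a GC content of 41.6% and no peak. The part of base composition and of repeated sequence in the peak counts was not tested.

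The sequences under 2 of these alpha peaks and at the same distance in a beta gene are shown to set their composition side by side, 5′ to 3′ on the plus strand of GRCh37 with CG pairs in capitals. They are the sgNeg H3K27Ac peak of PCDHA6 (chr5:140209681-140209943), the sgNpm1A H3K27Ac peak of PCDHA8 (chr5:140223025-140223192) and the stretch of PCDHB2 at the distance of the PCDHA6 peak (chr5:140476309-140476571), which held no peak. All lie in coding sequence.
PCDHA6: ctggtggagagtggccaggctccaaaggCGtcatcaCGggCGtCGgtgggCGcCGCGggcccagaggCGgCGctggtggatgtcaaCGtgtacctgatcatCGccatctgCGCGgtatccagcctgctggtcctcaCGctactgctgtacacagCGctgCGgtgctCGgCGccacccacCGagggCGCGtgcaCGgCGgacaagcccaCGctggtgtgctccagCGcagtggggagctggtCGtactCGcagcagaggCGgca
PCDHA8: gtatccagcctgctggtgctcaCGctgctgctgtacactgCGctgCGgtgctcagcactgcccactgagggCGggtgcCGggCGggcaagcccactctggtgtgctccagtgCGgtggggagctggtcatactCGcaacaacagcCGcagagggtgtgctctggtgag
PCDHB2: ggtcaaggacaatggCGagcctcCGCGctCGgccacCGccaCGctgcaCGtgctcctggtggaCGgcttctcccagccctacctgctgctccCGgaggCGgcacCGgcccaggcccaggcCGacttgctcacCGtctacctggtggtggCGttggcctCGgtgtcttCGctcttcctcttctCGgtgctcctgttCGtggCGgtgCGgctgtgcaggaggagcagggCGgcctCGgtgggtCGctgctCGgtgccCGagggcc
The PCDHA6 stretch had 28 CG pairs in 263 bp and a GC content of 68.8%. The PCDHA8 stretch had 9 in 168 bp and 66.1%. The PCDHB2 stretch had 25 in 263 bp and 70.7%. Of the runs of 50 bases from 1.5 to 3 kb after the PCDHB2 start, 54.7% recur elsewhere in the cluster, the highest share of the 16 beta genes.

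Across the whole cluster the density of peaks was 94.9, 111, 83.9 and 27.5 per Mb in sgNeg H3K27Ac, sgNpm1A H3K27Ac, sgNeg H3K4me3 and sgNpm1A H3K4me3, against 106, 102, 115 and 34.6 over 24 chromosomes and 148, 143, 201 and 70.0 on chromosome 5. Peaks covered 5.15%, 5.42%, 1.75% and 1.38% of the cluster. The beta group was the sparsest, with 30.3, 35.4, 20.2 and 5.05 peaks per Mb, against 150, 128, 97.3 and 39.8 in alpha and 121, 159, 143 and 38.4 in gamma. The stretch of gamma after the PCDHGC3 start, with the C-type genes and the constant exons, was the most covered in 3 lists, at 38.7% in sgNeg H3K27Ac, where the 12732 bp peak lies, 15.9% in sgNpm1A H3K27Ac and 5.56% in sgNeg H3K4me3. In sgNpm1A H3K4me3 it was covered to 4.22%, under the 4.68% of alpha after the PCDHAC2 start. The gamma genes before it were covered to 2.06% and 5.96% for H3K27Ac.

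**Figure D5:**
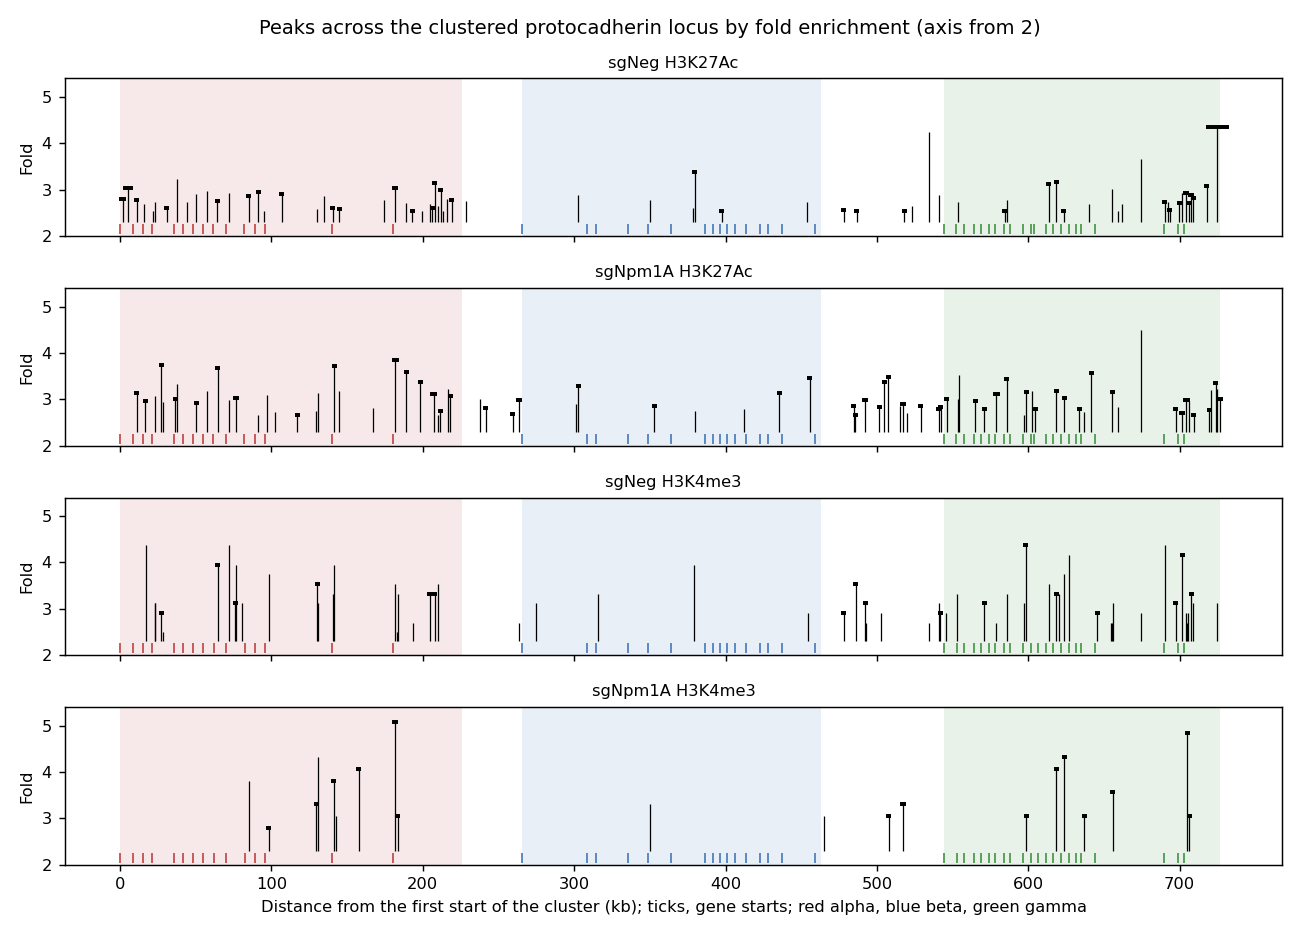
Peaks across the protocadherin locus in the 4 lists, by distance in kb from the first start of the cluster (horizontal) and fold enrichment (vertical, from 2). Horizontal strokes give the extent of a peak, lines mark its middle, ticks are gene starts, and shading marks alpha in red, beta in blue and gamma in green. The beta group holds 6, 7, 4 and 1 peaks in the 4 lists.

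The lists of the pair of guide RNAs overlapped in part. For H3K27Ac, 30 of 69 sgNeg peaks of the cluster (43.5%, 32.4 to 55.2%) overlapped a sgNpm1A peak, and 33 of 81 sgNpm1A peaks (40.7%) overlapped a sgNeg peak, against 50.7% and 51.4% over 24 chromosomes. For H3K4me3 the shares were 12 of 61 (19.7%) and 9 of 20 (45.0%), against 22.6% and 61.2%. The intervals of the cluster took in the share of the whole lists in all 4 comparisons, narrowly so for sgNpm1A H3K27Ac, where the interval was 30.7 to 51.6%.

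The highest sgNpm1A H3K27Ac peak of the cluster lay in no member's exon or promoter. It was 297 bp wide, between PCDHGA12 and PCDHGC3, with a fold of 4.49 at the 99.1st percentile, and sgNeg H3K27Ac had a peak of 281 bp at the same place with a fold of 3.66 at the 94.5th percentile. Its sequence is shown because its composition differs from that of the alpha peaks shown, with a GC content of 28.3% and 2 CG pairs (chr5:140840198-140840494, plus strand of GRCh37, runs of TATATA in capitals).
Highest sgNpm1A H3K27Ac peak: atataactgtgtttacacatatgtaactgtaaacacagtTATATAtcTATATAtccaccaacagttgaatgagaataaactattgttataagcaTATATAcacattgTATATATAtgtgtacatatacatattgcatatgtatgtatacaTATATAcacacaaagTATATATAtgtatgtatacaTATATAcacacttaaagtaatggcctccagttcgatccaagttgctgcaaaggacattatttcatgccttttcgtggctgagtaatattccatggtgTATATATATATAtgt
How often the sequence of this peak recurs elsewhere was not counted. Over all peaks of the cluster the median GC content was 49.7% in sgNeg H3K27Ac and 50.8% in sgNpm1A H3K27Ac. It was 41.3% for the cluster as a whole.

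Of the other coding genes in or within 100 kb of the cluster, 5 of 7 had a promoter peak in each H3K27Ac list, and 4 of 5 and 1 of 5 had one in sgNeg and sgNpm1A H3K4me3. HARS1 and HARS2, which encode histidyl-tRNA synthetases and share a start region, had a fold of 4.63 in sgNeg H3K27Ac, 4.00 in sgNpm1A H3K27Ac and 6.24 in sgNeg H3K4me3, and none in sgNpm1A H3K4me3. ZMAT2, a splicing protein, had 3.52, 3.04 and 10.2 in the same 3 lists and none in sgNpm1A H3K4me3. The first of these peaks was counted through a start inside the gene. TAF7, a subunit of the general transcription factor TFIID that lies between beta and gamma, had 4.24 in sgNeg H3K27Ac, which was the highest peak of the cluster outside the gamma constant region in that list, 2.70 in sgNeg H3K4me3 (percentile 7.07) and none in either sgNpm1A list. SLC25A2, a mitochondrial carrier next to TAF7, had 2.54 (percentile 4.59) and 2.90 in the H3K27Ac lists, 3.31 in sgNpm1A H3K4me3 and none in sgNeg H3K4me3. AC005609.1 had 3.03 in sgNpm1A H3K27Ac and none in sgNeg H3K27Ac, and the last of the 7, a gene without a symbol, had none.

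Other gene families were counted in the same way. Of 12 protocadherins outside the cluster, 6, 3, 3 and 2 had a promoter peak in the 4 lists. PCDH1 had one in all 4, with folds of 3.21, 3.68, 3.95 and 3.82, each counted through a start inside the gene. So were the peaks of PCDH7 in sgNeg H3K27Ac, PCDH12 in sgNpm1A H3K27Ac and PCDH15 in each H3K27Ac list. Of the olfactory receptor genes on chromosome 11, another clustered family, 23.2% of 177 and 37.3% of 177 had one for H3K27Ac and 23.4% of 167 and 8.38% of 167 for H3K4me3. Of the ZNF genes on chromosome 19, which lie in clusters and are widely expressed, 84.3% and 40.6% of 249 had one for H3K27Ac and 76.0% and 3.60% of 250 for H3K4me3.

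Promoter peaks were counted at 13 factors known to act on the cluster. All 13 of them, CTCF, the cohesin genes and their loader and release factor RAD21, SMC1A, SMC3, STAG1, STAG2, NIPBL and WAPL, and the chromatin and DNA methylation factors WIZ, SMCHD1, SETDB1, TRIM28 and DNMT3B, had a promoter peak for each mark in sgNeg, against 79.1% and 68.3% of all coding genes. In sgNpm1A 5 of 13 had one for H3K27Ac and 0 of 13 for H3K4me3, against 57.0% and 9.49%. In all 5 the highest such peak lay over 1 kb from the start of the gene record. It was counted through an annotated start inside the gene, as were the WIZ peak in each sgNeg list and the SMC1A peak in sgNeg H3K4me3. CTCF had a fold of 8.45 in sgNeg H3K27Ac and RAD21 one of 8.36, each at the 99.9th percentile.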

How the data were processed

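ChIPmentation peak lists of OCI-AML3 were analysed for 1 library of each guide RNA and mark, with groups taken from the sample titles. The submitters' processing notes name bcl2fastq 2.17, Trimmomatic 0.33, Bowtie 1.1.2, MACS2 2.1.0, deepTools and hg38. The authors called peaks in each library separately, with a threshold and a use of the inputs that are not given in the sources used here. The H3K27Ac lists ended at 249218478 on chromosome 1, which fits GRCh37, and the H3K4me3 lists at 83201880 on chromosome 17, past its end of 81195210 in GRCh37. The fold enrichment deposited for each peak is the ratio of its pileup to the pileup expected (with 1 added to each for H3K4me3, as found from the values), averaged over the region for H3K27Ac and taken at the summit for H3K4me3. The authors also gave a −log10 p-value, used for an alternative rank, and a −log10 q-value, used for a limit. The deposited score and the summit offset in the authors' files were not used.

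Peaks on 24 chromosomes were matched to starts by an overlap of at least 1 bp with Python 3.11.15, pandas 2.3.3, numpy 2.4.6 and scipy 1.17.1, and counts were checked with bedtools 2.31.1 and tested on simulated data. Figures were drawn with matplotlib 3.10.9. Starts were those of GENCODE version 44 on GRCh37, and for H3K4me3 those of RefSeq gene records and promoter windows on GRCh38.p14, so that internal starts were used more fully for H3K27Ac. Of 20037 RefSeq coding genes, 19675 had a strand. Promoters were 1 kb on either side of a start, and shares have 95% Wilson intervals. Alternatives were q-value and fold limits, windows of 500 bp and 2 kb, gene record starts, a span with 10 kb added, and ranks by p-value or width. The genes named were the C-type genes, PCDHB1, the highest members of each group and list, and those with peaks in both lists of a mark or in sgNpm1A only. Members and lists were chosen with earlier results of these data known. Members' protein sequences were not analysed here.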

Additional observations from a re-analysis of the deposited data

How the results depend on the processing

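With 1 library a group, no left-out library and no test could be had. No paired analysis was possible because each group has 1 sample and the results come from no test. Limiting the peaks to a q-value under 0.01 left 2 members with a promoter peak in sgNeg H3K27Ac and 3 in sgNpm1A H3K27Ac, and 1.62% and 2.11% of the cluster under peaks in these lists. A fold of at least 4 left 1, 0, 3 and 1 members in sgNeg H3K27Ac, sgNpm1A H3K27Ac, sgNeg H3K4me3 and sgNpm1A H3K4me3. A window of 500 bp left 5, 2, 3 and 1 members. The share of all coding genes was not counted for the fold limit, for 500 bp or for starts of the gene record alone. Scarcity at the cluster was therefore not assessed in these settings, and around the record start it was described only in bins of 500 bp. A window of 2 kb gave 23, 32, 20 and 6 members (43.4%, 60.4%, 37.7% and 11.3%), against 83.0%, 67.3%, 74.5% and 15.2% of all genes. For H3K27Ac, sgNpm1A had more members than sgNeg at 2 kb, but fewer at 1 kb, with 12 against 15. The other alternatives, which were starts of the gene record alone, a span with 10 kb added and ranks by p-value or width, moved every count and median by less than 1.5 times. For H3K4me3 this also held for the q-value limit.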
